A study of Mus musculus with 8 samples.

Results

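The collagen genes of the mouse colonic mucosa were described across 4 groups of animals. They were taken as all genes of the count table whose symbol is Col, a number, a and a number with nothing after. This pattern found 42 genes among the 17353 in the table, and the 35 with at least 10 counts summed over the 8 libraries were kept. The other 7 (Col2a1, Col4a4, Col9a1, Col11a1, Col17a1, Col19a1 and Col26a1) had 2 to 4 counts in all. Of the 35 genes, 9 encode fibrillar collagens, 7 encode collagens of basement membranes and 19 encode other collagens, and 28 (8, 6 and 14) had enough counts to be tested.

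Polyadenylated RNA was sequenced from male wild-type C57BL/6J mice, 2 animals in each group, all sampled on day 7. Controls were given saline enemas. The DSS model group was given the same enemas and drank 3% dextran sulfate sodium (DSS), which damages the epithelium of the colon and is used as a model of ulcerative colitis. A Kuiyangling group drank DSS and was given this herbal formula by enema at 10 g/kg, and a mesalazine group drank DSS and was given mesalazine, an aminosalicylate used against ulcerative colitis, by enema at 50 mg/kg. Every enema had a volume of 0.2 ml, so all groups share the enema itself, and a group that drank no DSS but received a treatment was not analysed here. The series text names DSS for the model as a whole, and the labels of single samples give only the enema.

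Collagens are triple helices of 3 chains that are hydroxylated and folded in the endoplasmic reticulum, secreted, trimmed and cross-linked outside the cell. Fibrillar collagens, mostly of types I, III and V, form the fibrils that give the lamina propria and submucosa their tensile strength and are made chiefly by fibroblasts. Type IV collagen forms the sheet-like network of basement membranes under the epithelium and around vessels and muscle, and further collagens bind to fibrils, form beaded filaments or anchor the epithelium. In the colon, collagen synthesis is part of mucosal repair and, where it persists, of fibrosis.

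Library totals ran from 15560946 to 17843715 counts, so that 3 counts, taken as the floor of detection, correspond to 0.149 to 0.212 CPM (counts relative to the scaled library size). A pair of libraries stood apart from the rest, mesalazine 1 with a mean Spearman correlation of 0.940 to the other libraries and control 2 with 0.945, against 0.963 to 0.974 elsewhere. In mesalazine 1, ribosomal protein genes also took 12.7% of the counts, against 3.35% to 6.68% in the other libraries. Control 2 had the highest summed level of 4 leukocyte markers, 53.2 CPM against 10.6 to 22.0 elsewhere (Cd79a, a B cell receptor component, 9.31 against 0.0991 to 1.46), and of the 2 skeletal muscle markers in the table, 32.9 against 4.98 to 12.1. The part of these libraries' make-up in the control comparisons was not tested, and the values without control 2 are given beside the calls. Markers of colon epithelium were present in every library, with Epcam between 2098 and 2942 CPM and the 7 markers together between 15746 and 26966 CPM. Markers of mesothelium (at most 1.87 CPM for 4 genes) and of enteric glia (at most 1.30 CPM for 4 genes) were near the floor. The labels name no batch, and p-values measure only the spread between these samples. In bulk tissue, fewer cells of a type and less RNA per cell cannot be told apart.

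Between the DSS model and controls, most fibrillar collagens and the main basement membrane collagens had higher values. Other collagens went both ways, 6 of the 14 tested higher and 4 lower without overlap. Only 1 of the 28 tested genes passed the test. This was Col8a1, a network-forming collagen of vessel walls, which fell. The share of all 13381 tested genes called in either direction by edgeR was 0.247%, with 0.194% called higher and 0.0523% lower. Groups were fully separated for 20 collagens, 15 higher and 5 lower, where 27.1% of all tested genes were higher and 26.3% lower without overlap. An unadjusted p under 0.05 was found for 17 of the 28 collagens and for 14.8% of all tested genes. The median log2 change was 1.88 for the 8 fibrillar, 1.14 for the 6 basement membrane and -0.31 for the 14 other collagens, beside -0.04 over all tested genes. Without control 2 these medians were 1.41, 0.90 and 0.07, and without control 1 they were 2.69, 3.05 and 1.08, so that for the other collagens the sign changed with either control.

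**Figure D1:**
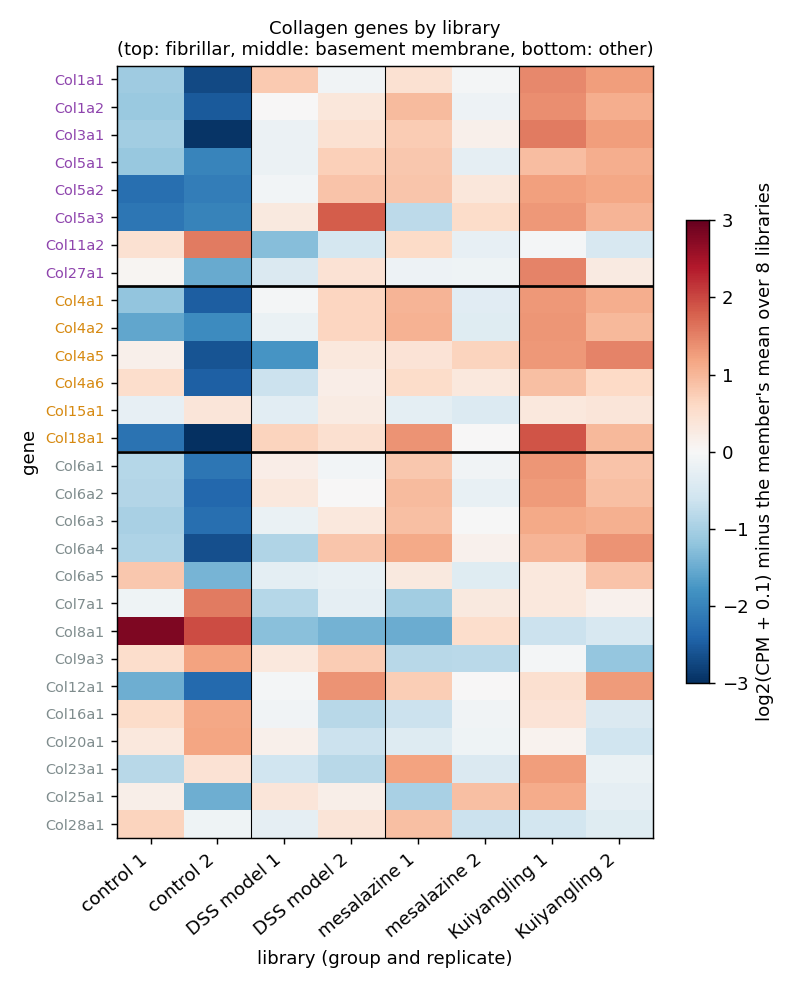
Heat map of the 28 tested collagen genes (vertical axis) in the 8 libraries (horizontal axis), coloured by log2(CPM + 0.1) minus the gene's own mean over the libraries. Most fibrillar, type IV and type VI genes are blue in both controls and red in both Kuiyangling libraries, and Col8a1 is red in both controls.

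Type I collagen, the main fibril collagen, is built from the chains encoded by Col1a1 and Col1a2. Col1a1 stood at 4.01 and 1.23 CPM in the controls, 15.0 and 7.96 in the DSS model, 11.8 and 8.29 with mesalazine and 23.5 and 20.6 with Kuiyangling. Both controls lay below every other library, and both Kuiyangling libraries lay above every other library. Its log2 change between the DSS model and controls was 2.11 (SE 0.52, edgeR adjusted p = 0.138). Col1a2 stood at 7.73 and 2.84 CPM in the controls, 17.1 and 21.2 in the DSS model, 32.5 and 15.1 with mesalazine and 44.4 and 35.9 with Kuiyangling. Again the controls were lowest and the Kuiyangling libraries highest, and the mesalazine animals lay on both sides of the DSS model. The change between the DSS model and controls was 1.84 (SE 0.49, adjusted p = 0.157). Per length, in FPKM, Col1a2 was between 1.29 and 3.15 times as high as Col1a1 in each library.

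Col3a1 encodes type III collagen, a homotrimer of distensible tissues such as gut and vessel walls, and had the highest mean level of the 35 genes, 7.01 FPKM over the 8 libraries. It stood at 13.7 and 3.64 CPM in the controls, 25.0 and 39.0 in the DSS model, 47.9 and 31.5 with mesalazine and 83.9 and 67.8 with Kuiyangling. All libraries of DSS-exposed animals exceeded both controls. The log2 change was 1.88 (SE 0.52, adjusted p = 0.170) between the DSS model and controls. The upstream windows of Col1a2 and Col3a1 are shown because these partners of mixed fibrils gave similar log2 changes while their upstream sequences differ. RefSeq places these 250 bases before the annotated start at chr6:4505368-4505617 for Col1a2 and at chr1:45311288-45311537 for Col3a1, both on the plus strand of GRCm38.p6. Capitals mark matches on either strand to the CCAAT box, to TATAAA of the TATA box, and to the GC box letters GGGCGG.
Col1a2: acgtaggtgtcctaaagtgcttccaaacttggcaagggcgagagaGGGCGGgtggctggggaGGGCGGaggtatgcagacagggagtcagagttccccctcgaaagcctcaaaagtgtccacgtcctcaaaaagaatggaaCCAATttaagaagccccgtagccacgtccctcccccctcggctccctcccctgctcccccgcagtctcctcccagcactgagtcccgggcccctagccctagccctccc
Col3a1: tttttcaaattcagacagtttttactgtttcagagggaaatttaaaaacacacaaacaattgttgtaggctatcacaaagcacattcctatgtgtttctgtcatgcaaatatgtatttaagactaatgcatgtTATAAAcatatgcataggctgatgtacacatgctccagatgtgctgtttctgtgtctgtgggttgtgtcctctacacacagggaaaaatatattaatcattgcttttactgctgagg
The Col1a2 window had a GC content of 62.0%, with a CCAAT beginning 109 bases before the start and GGGCGG at 205 and 188 bases. The Col3a1 window had a GC content of 35.2% and a single TATAAA beginning 117 bases before the start. Of the 35 collagens 28 had a window in the table used, Col1a1 and Col5a2 not among them. These 28 genes had 30 windows, since some have more than 1 listed start. In 300-base windows that include 50 bases after the start, GGGCGG on either strand was in 70% of the 30 collagen windows and 35.7% of all 32851 windows, CCAAT in 33.3% and 37.4%, and TATAAA in 10% and 13.6%. A match is a description of the sequence and not a binding site.

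Type V collagen co-assembles with type I and limits fibril diameter. Its chain gene Col5a2 stood at 0.694 and 0.802 CPM in the controls, 3.46 and 6.76 in the DSS model, 6.65 and 4.73 with mesalazine and 8.79 and 8.36 with Kuiyangling. The controls were close to each other and far below all other libraries. The log2 change between the DSS model and controls was 2.76 (SE 0.47, adjusted p = 0.0567), just outside the threshold. Col5a1 stood at 2.08 and 1.11 CPM in the controls, 4.15 and 7.82 in the DSS model, 8.35 and 3.91 with mesalazine and 9.10 and 10.2 with Kuiyangling. Again no library of a DSS-exposed animal reached down to the controls. Its change was 1.89 (SE 0.52, adjusted p = 0.168). Col5a3 had the highest estimate of all collagens, 4.11 (SE 0.87, adjusted p = 0.0993), from 0.0991 and 0.123 CPM in the controls, which is 2 counts in each, to 1.01 and 3.05 CPM. Per length, Col5a2 was 0.429 and 0.930 times as high as Col5a1 in the controls and 1.03 to 1.56 times as high in the other libraries.

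The remaining fibrillar genes were low. Col11a2, a chain of the cartilage collagen XI, went the other way, from 1.29 and 2.90 CPM in the controls to 0.315 and 0.597 in the DSS model, without overlap (log2 change -2.18, SE 0.68, adjusted p = 0.213). For Col27a1, a collagen of cartilage and other tissues, the groups overlapped (0.64, SE 0.79, adjusted p = 0.697). Col24a1, an untested fibrillar collagen, had 1 count in the 2 controls together and 2 in the DSS model.

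**Figure D2:**
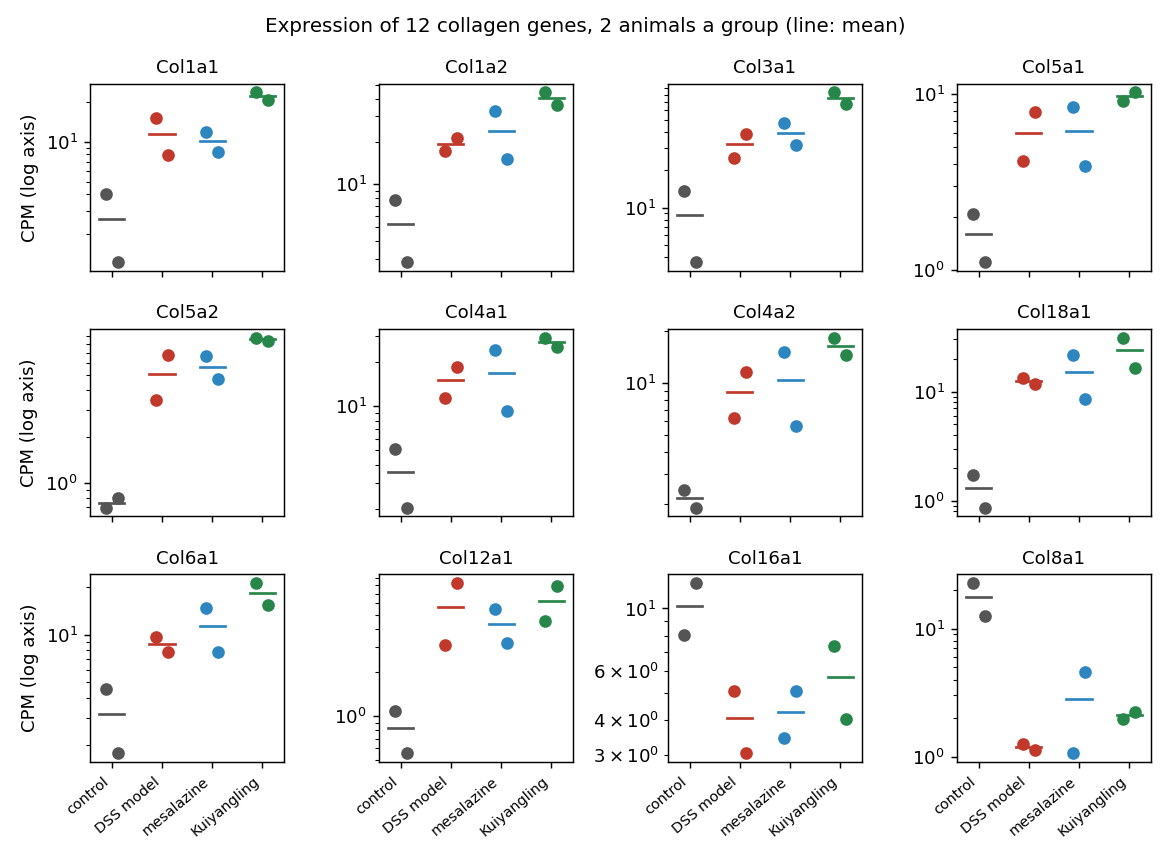
CPM (log axis) of 12 collagen genes in the 4 groups (horizontal axis), each point 1 animal and each line the mean of 2. In 10 of the panels the controls are the lowest group, and in those of Col16a1 and Col8a1 they are the highest.

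Among the basement membrane collagens, Col4a1 and Col4a2 encode the chains of the widespread type IV network. Col4a1 stood at 5.15 and 2.04 CPM in the controls, 11.4 and 18.6 in the DSS model, 24.3 and 9.28 with mesalazine and 29.4 and 25.2 with Kuiyangling. Col4a2 stood at 2.43 and 1.91 CPM in the controls, 6.29 and 11.5 in the DSS model, 15.2 and 5.66 with mesalazine and 18.3 and 14.4 with Kuiyangling. In both genes the controls were lowest, and the mesalazine libraries lay on either side of the DSS model. Both Kuiyangling libraries were above all others for Col4a1, while for Col4a2 mesalazine 1 exceeded Kuiyangling 2. The log2 changes between the DSS model and controls were 2.05 (SE 0.54, adjusted p = 0.154) and 2.03 (SE 0.51, adjusted p = 0.142). These genes lie head to head on chromosome 8 of GRCm38.p6, with RefSeq starts 21 bases apart on opposite strands. Per length, Col4a1 was 1.04 to 2.07 times as high as Col4a2. Col4a5 and Col4a6, X-linked chains of more restricted networks, overlapped between the groups, with changes of 0.26 and 0.10. Col4a3, a chain known from kidney and lung, had 3 counts in the controls and 0 in the DSS model.

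Col18a1 and Col15a1 encode the multiplexins, collagens with heparan or chondroitin sulfate chains that sit in or beside basement membranes, and a fragment of the former is endostatin. Col18a1 stood at 1.73 and 0.863 CPM in the controls, 13.3 and 11.8 in the DSS model, 21.7 and 8.52 with mesalazine and 31.2 and 16.5 with Kuiyangling. The lowest DSS-exposed library was still far above the higher control. The log2 change between the DSS model and controls was 3.25 (SE 0.55, adjusted p = 0.0567), the highest estimate among basement membrane collagens. Per length, Col18a1 was 0.309 and 0.389 times as high as Col4a1 in the controls and 0.583 to 1.07 times as high in the other libraries, without overlap. Col15a1 stood at 1.98 and 3.08 CPM in the controls and 1.89 and 2.85 in the DSS model, overlapping ranges (log2 change -0.09, SE 0.46, adjusted p = 0.931). RefSeq lists windows at 2 starts of Col18a1, shown because this gene passed the test in both comparisons of a treated group with controls: chr10:77166531-77166780 and chr10:77113706-77113955, both on the minus strand of GRCm38.p6, printed in the direction of transcription with the same capitals.
Col18a1, outer start: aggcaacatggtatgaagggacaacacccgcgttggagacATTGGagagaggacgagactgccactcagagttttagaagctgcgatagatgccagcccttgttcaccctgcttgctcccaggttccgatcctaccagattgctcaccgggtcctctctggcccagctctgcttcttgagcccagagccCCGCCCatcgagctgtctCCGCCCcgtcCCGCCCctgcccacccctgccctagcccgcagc
Col18a1, inner start: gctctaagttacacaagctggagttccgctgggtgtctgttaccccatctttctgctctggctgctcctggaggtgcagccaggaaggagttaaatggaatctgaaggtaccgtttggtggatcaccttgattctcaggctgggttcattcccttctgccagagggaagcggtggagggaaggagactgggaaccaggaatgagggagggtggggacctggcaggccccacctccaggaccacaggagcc
The outer window held 3 GGGCGG matches on the opposite strand, beginning 61, 43 and 33 bases before the start, and 1 CCAAT match at 210 bases. The inner window held none of the 3 motifs. The deposited counts are per gene, so use of the starts was not tested.

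**Figure D3:**
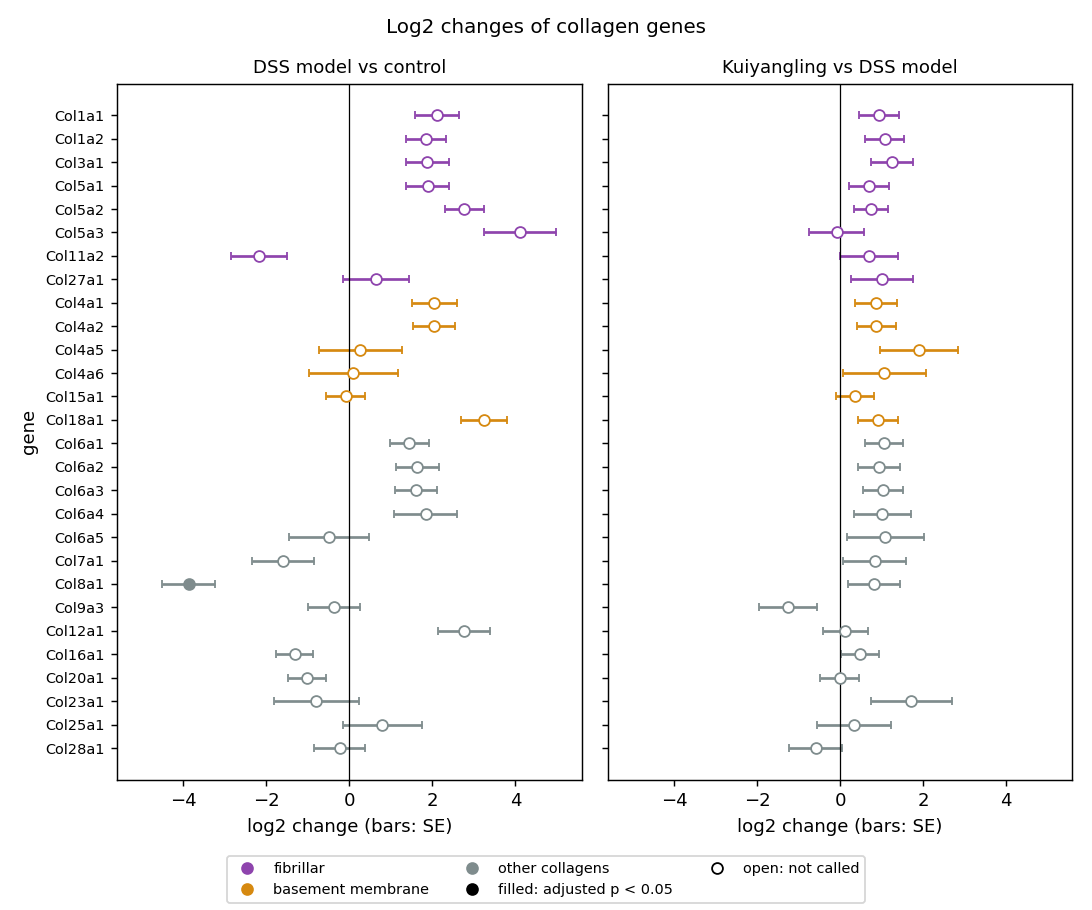
Log2 changes with SE (horizontal axis) of the 28 tested collagen genes (vertical axis), coloured by class, for the DSS model against control and Kuiyangling against the DSS model. Filled symbols passed the test, which is Col8a1 on the left and no gene on the right.

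Type VI collagen forms beaded microfilaments around cells in most connective tissues. Col6a1 stood at 4.56 and 1.79 CPM in the controls, 9.62 and 7.82 in the DSS model, 14.7 and 7.82 with mesalazine and 21.2 and 15.3 with Kuiyangling. The Kuiyangling libraries were the highest, and the controls the lowest. The changes between the DSS model and controls were 1.45 (SE 0.48, adjusted p = 0.233) for Col6a1, 1.64 (SE 0.52, adjusted p = 0.220) for Col6a2 and 1.60 (SE 0.51, adjusted p = 0.217) for Col6a3. Col6a4, a further type VI chain, was also higher without overlap (1.84, SE 0.75, adjusted p = 0.302), whereas Col6a5 overlapped (-0.49, SE 0.96). Per length, Col6a1 was 1.33 to 1.69 times as high as Col6a2 in each library, the narrowest of the 7 chain ratios computed when the highest is divided by the lowest.

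Collagens that attach to fibrils had estimates of both signs. Col12a1, which binds type I fibrils and is found in tissues under load, stood at 1.09 and 0.555 CPM in the controls and 3.08 and 8.29 in the DSS model, higher without overlap (2.76, SE 0.62, adjusted p = 0.119). Col16a1, a fibril-associated collagen of several tissues, stood at 8.08 and 12.3 CPM in the controls and 5.09 and 3.05 in the DSS model, lower without overlap (-1.32, SE 0.45, adjusted p = 0.244). Col20a1, of the same family, went from 5.65 and 10.5 CPM to 5.03 and 2.85 (-1.03, SE 0.46, adjusted p = 0.339). Control 2 held the higher value of both Col16a1 and Col20a1 and the lower value of Col12a1. The related Col14a1 had 9 counts in the controls and 3 in the DSS model, which is at the floor, a ratio of 2.55 lower with an exact 95% counting interval of 0.637 to 14.7. Col7a1, the anchoring fibril collagen at the epithelial base, stood at 0.892 and 3.08 CPM in the controls and 0.503 and 0.796 in the DSS model (-1.59, SE 0.75, adjusted p = 0.350). That estimate was -0.46 without control 2 and -2.25 without control 1. Of the remaining other collagens, Col25a1, a transmembrane collagen known from brain, was higher without overlap at very low levels (0.79, SE 0.95, adjusted p = 0.692). Col9a3, Col23a1 and Col28a1 overlapped, at -0.38, -0.80 and -0.24. The untested Col13a1, Col22a1 and Col9a2 had 3, 2 and 4 counts in the controls and 5, 5 and 2 in the DSS model.

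Col8a1 and Col8a2 encode type VIII collagen, a short-chain collagen that assembles into hexagonal lattices in vessel walls and the cornea. Col8a1 had 459 and 202 counts in the controls, 20 and 17 in the DSS model, 15 and 78 with mesalazine and 32 and 43 with Kuiyangling. In CPM these were 22.7 and 12.5 in the controls, 1.26 and 1.13 in the DSS model, 1.06 and 4.55 with mesalazine and 1.98 and 2.23 with Kuiyangling. Both controls lay above all 6 DSS-exposed libraries, and Col8a1 had the highest FPKM of any collagen in each control, 5.03 and 2.46. It fell by 3.88 on the log2 scale between the DSS model and controls (SE 0.64, adjusted p = 0.0495). The call sat close to the threshold and was lost in 6 of 8 fits that left out 1 library, where the adjusted p was 0.0761 or 0.120 on leaving out control 1 or control 2, 0.232 or 0.312 for DSS model 1 or 2, and 0.0597 or 0.0612 for Kuiyangling 1 or 2. The estimate stayed between -4.24 and -3.39 in these 8 fits. The call was also lost with the replicate block and gene length correction together (adjusted p = 0.0597) and with limma on log2(FPKM + 0.1) and log2(FPKM + 1) (0.0711 and 0.0841). Its partner Col8a2 had 9 counts in the controls and 0 in the DSS model, 2.55-fold lower with the floor of 3 counts applied to the group as a whole. The upstream window of Col8a1, at chr16:57754738-57754987 on the minus strand of GRCm38.p6, is shown as that of the collagen called lower, with the same capitals.
Col8a1: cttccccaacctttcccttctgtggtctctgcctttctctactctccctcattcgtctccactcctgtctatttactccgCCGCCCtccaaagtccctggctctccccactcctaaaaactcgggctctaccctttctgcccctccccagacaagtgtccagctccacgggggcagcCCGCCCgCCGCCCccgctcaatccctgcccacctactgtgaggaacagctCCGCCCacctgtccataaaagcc
It held GGGCGG on the opposite strand beginning 170, 73, 66 and 23 bases before the start, and neither of the other motifs.

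Smooth muscle markers had estimates of the same sign as Col8a1, and most fibroblast markers had that of the fibrillar collagens. The summed level of 7 smooth muscle markers was 87.6 and 25.0 CPM in the controls and 14.0 and 32.4 in the DSS model, 7 of 7 estimates below 0, 4 of them without overlap, 5 with an unadjusted p under 0.05 and 0 called, where 26.3% of all tested genes were lower without overlap and 14.8% had such a p. The smooth muscle sum was 57.6 and 54.9 CPM with Kuiyangling and 44.0 and 13.4 with mesalazine. Control 2 thus lay below DSS model 2, mesalazine 1 and both Kuiyangling libraries, whereas Col8a1 was higher in both controls than in every DSS-exposed library. The part of smooth muscle in the Col8a1 result was not tested. The summed level of 8 fibroblast markers was 10.6 and 9.80 CPM in the controls and 24.7 and 68.3 in the DSS model. Of the 7 tested, 5 were higher without overlap, as 27.1% of all tested genes were, 5 had an unadjusted p under 0.05, and 0 were called. Dcn, a proteoglycan of fibrils, had the smallest p among them (3.53, adjusted p = 0.0623). The defining fibroblast receptor Pdgfra stood at 2.97 and 0.678 CPM in the controls and 5.35 and 9.68 in the DSS model. Pi16 was at or near 0 throughout. The part of fibroblast number in the collagen values was not tested. Endothelial markers were at 5.75 and 6.54 CPM in the controls and 4.53 and 8.16 in the DSS model, and their groups overlapped. Gene length also varied with library: the tested collagens had a median length of 6500 bases against 3475 for all tested genes, and longer genes had relatively more counts in the controls (rho 0.444 and 0.267 across genes) than in the DSS model (-0.0959 and -0.433). With length corrected for, the fibrillar median was 2.18 and that of basement membrane collagens 1.42.

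**Figure D4:**
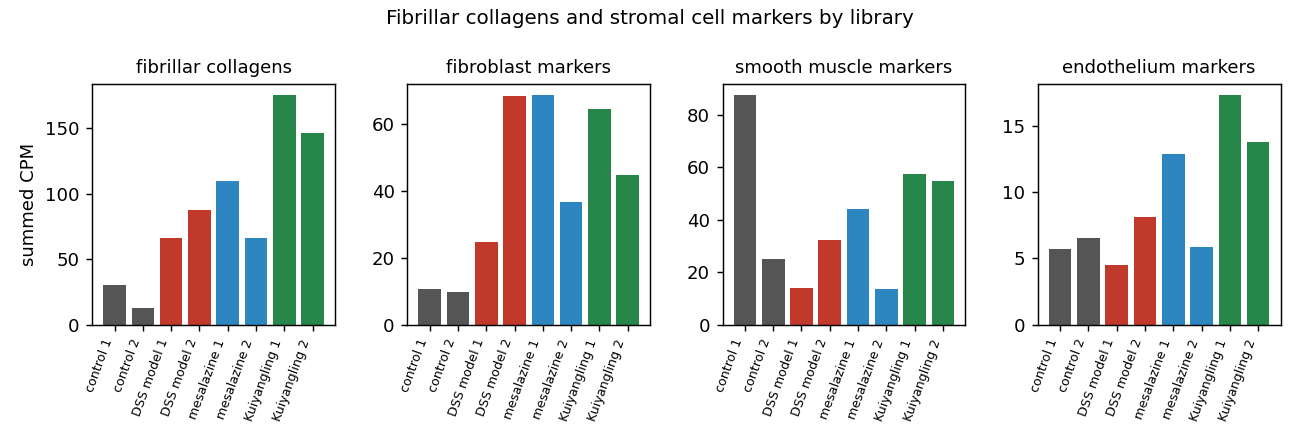
Summed CPM (vertical axis, own scale in each panel) of fibrillar collagens and of fibroblast, smooth muscle and endothelial markers in each library (horizontal axis). Fibrillar collagens and fibroblast markers are lowest in the controls, whereas smooth muscle markers are highest in control 1.

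The make-up of collagen RNA in the controls lay outside its range in all other animals. On the FPKM scale, fibrillar genes gave 30.1% and 17.7% of the summed collagen level in the controls and 47.9% to 55.2% in the 6 DSS-exposed libraries. Basement membrane genes gave 11.7% and 11.3% in the controls and 17.9% to 24.4% elsewhere. Other collagens gave 58.2% and 71.0% in the controls, with Col8a1 in the lead, and 24.4% to 31.9% elsewhere. The ranges did not overlap for any of the 3 classes. Summed over all 35 genes the level was 19.7 and 11.8 FPKM in the controls, 22.7 and 28.7 in the DSS model, 33.1 and 24.0 with mesalazine and 58.3 and 50.6 with Kuiyangling.

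**Figure D5:**
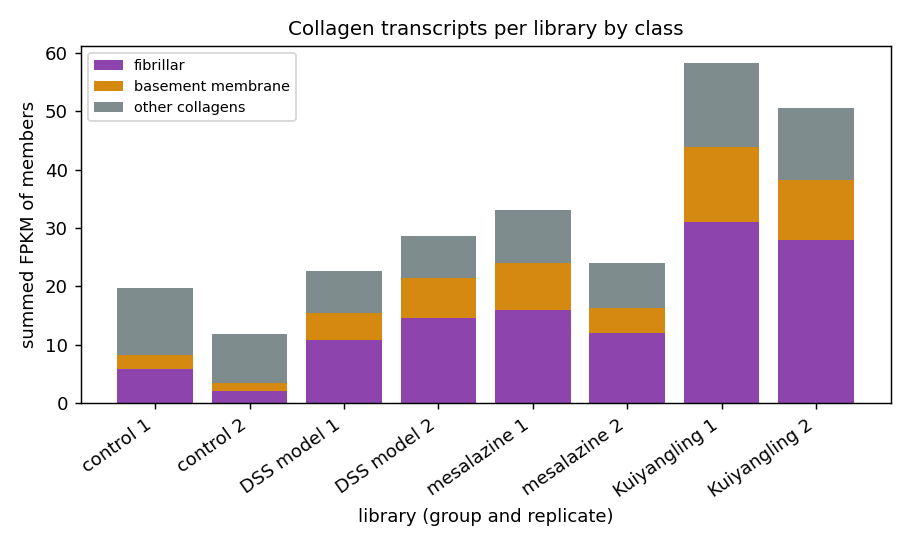
Summed FPKM (vertical axis) of the collagen genes in each library (horizontal axis), stacked by class. The fibrillar part is 5.94 and 2.10 FPKM in the controls and 31.0 and 27.9 in the Kuiyangling libraries.

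The Kuiyangling group was set against the DSS model for a difference in collagen expression with the formula. Values were higher with Kuiyangling for most collagens, and 0 of the 28 passed the test, as 0% of all tested genes did. The libraries did not overlap for 20 collagens that were higher and 2 that were lower, where 21.9% of all tested genes were higher and 21.1% lower without overlap. An unadjusted p under 0.05 was found for 3 collagens (Col1a2, Col3a1 and Col6a1) and for 3.56% of all tested genes, and DESeq2 also called 0 collagens and 0.0749% of genes, as edgeR without its filter called 0 and 0.0634%. The median log2 change was 0.84 for fibrillar, 0.90 for basement membrane and 0.83 for other collagens, beside 0.00 over all tested genes. All 6 tested basement membrane genes and all 5 of type VI were higher without overlap. Longer genes, collagens among them, had relatively more counts with Kuiyangling (rho -0.02 and 0.39) than in the DSS model (-0.0959 and -0.433). Over the alternative fits other than leaving out a library, length correction among them, the fibrillar median ran from 0.43 to 0.94. That of basement membrane collagens ran from 0.51 to 0.98 and that of other collagens from 0.11 to 0.87.

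Col3a1 had the smallest p of the collagens, with 83.9 and 67.8 CPM against 25.0 and 39.0 (log2 change 1.24, SE 0.51, adjusted p = 0.996). For Col6a1 the change was 1.06 (SE 0.46) and for Col1a2 1.07 (SE 0.47), with the same adjusted p. The type IV genes Col4a1 and Col4a2 were at 0.86 (SE 0.51) and 0.87 (SE 0.47), and Col18a1 at 0.92 (SE 0.48). Not all collagens shared this direction. Col9a3, a chain of the cartilage collagen IX, stood at 0.557 and 0.208 CPM against 0.755 and 1.06 (-1.26, SE 0.69, adjusted p = 0.996), and Col28a1, a collagen of peripheral nerve, at 1.11 and 1.30 against 1.38 and 2.25 (-0.59, SE 0.63). For Col5a3 (-0.09, SE 0.66) and Col12a1 (0.13, SE 0.55) the groups overlapped. Col8a1 stood at 1.98 and 2.23 against 1.26 and 1.13 CPM (0.82, SE 0.63, adjusted p = 0.996), without overlap but far under the controls. Among the untested genes, Col4a3 had 7 counts against 0, 2.04-fold more with the DSS model set to the floor of 3 counts. Col24a1 had 16 counts against 2, a ratio of 7.00 (95% counting interval 1.65 to 62.7), and Col14a1 18 against 3 (5.25, 1.53 to 27.8). These intervals cover counting error only. The 7 smooth muscle markers (57.6 and 54.9 against 14.0 and 32.4 CPM) and 5 of 6 endothelial markers (summed, 17.3 and 13.8 against 4.53 and 8.16 CPM) were also higher without overlap, as 21.9% of all tested genes were. The summed fibroblast markers overlapped (64.3 and 44.7 against 24.7 and 68.3 CPM). Of the 7 tested fibroblast markers 1, Pdgfra, was higher without overlap, at 15.5 and 12.7 against 5.35 and 9.68 CPM, and their median was 0.31. Markers of colon epithelium were lower without overlap for 6 of 7 (median -0.37), as 21.1% of all tested genes were. The part of these cell types in the collagen values was not tested.

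Between mesalazine and the DSS model, no collagen differed by enough to pass the test against the spread between animals. The count was 0 of 28, as 0% of all tested genes passed, and 1 collagen had an unadjusted p under 0.05, beside 5.49% of all tested genes. DESeq2 called 0 collagens and 0.76% of genes, and edgeR without its filter 0 and 0.599%. The libraries overlapped for 23 of 28, with 4 higher and 1 lower (14% and 13.8% of all tested genes). Medians were 0.09 for fibrillar, 0.24 for basement membrane and 0.31 for other collagens. Without mesalazine 1, the library that stood apart, they were -0.29, -0.51 and -0.10. That library was higher than mesalazine 2 for Col1a1, Col1a2, Col3a1, Col4a1, Col4a2, Col18a1 and Col6a1 alike. The member with the smallest p was Col9a3, at 0.283 and 0.292 against 0.755 and 1.06 CPM (-1.63, SE 0.72, adjusted p = 0.890), and Col8a1 (1.24, SE 0.63, adjusted p = 0.926) and Col5a3 (-1.27, SE 0.70, adjusted p = 0.954) followed, both with overlap. Without mesalazine 2 the Col8a1 estimate was -0.17. Markers of colon epithelium were lower without overlap for 5 of 7 (median -0.43), as 13.8% of all tested genes were. Medians were 0.33 for smooth muscle, 0.56 for endothelial and 0.26 for fibroblast markers. The part of these cell types was not tested.

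Against controls, Col18a1 and Col5a2 were called higher in both treated groups. With Kuiyangling the changes were 4.17 for Col18a1 (SE 0.57) and 3.51 for Col5a2 (SE 0.47, adjusted p = 0.0292 for both). With mesalazine they were 3.51 for Col18a1 (SE 0.56, adjusted p = 0.0312) and 2.92 for Col5a2 (SE 0.47, adjusted p = 0.0318). All treated libraries exceeded both controls for these genes, with values given above. The 2 called collagens of 28, both higher, stand beside 0.239% of all tested genes called with Kuiyangling (0.187% higher and 0.0523% lower) and 0.673% with mesalazine (0.433% higher and 0.239% lower). An unadjusted p under 0.05 was found for 19 collagens with Kuiyangling and 18 with mesalazine, and for 10.3% and 20% of all tested genes. Fibroblast markers were also above controls, without overlap for 6 of 7 with Kuiyangling (median 2.92) and 5 of 7 with mesalazine (median 2.30). Endothelial markers were so for 4 of 6 (median 2.06) and 3 of 6 (median 1.28), and smooth muscle medians were -0.60 and -1.76. Of all tested genes, 25.9% with Kuiyangling and 23.6% with mesalazine were higher than controls without overlap. Colon epithelium medians were -0.33 and -0.66. The part of these cells in the collagen values was not tested. These comparisons and that of the DSS model share the same 2 controls, and the 3 groups also share DSS, so they are not independent. A comparison of a treated group with controls joins the effect of DSS and that of the treatment. In the DSS model, which had no treatment, Col18a1 (3.25) and Col5a2 (2.76) were already above controls, though not called. Against the DSS model, Col18a1 was at 0.92 (SE 0.48) with Kuiyangling and 0.26 (SE 0.48) with mesalazine. Col5a2 was at 0.75 (SE 0.41) and 0.15 (SE 0.41), and no collagen was called.

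Each call was lost in some of the fits that left out 1 library. Such a fit has 1 animal in a group and fewer degrees of freedom, so a lost call does not single out that library. Without control 2, 0 collagens were called in any comparison, and Col18a1 was at 3.77 with Kuiyangling (adjusted p = 0.255) and 3.11 with mesalazine (0.272), Col5a2 at 3.61 (0.255) and 3.02 (0.238). Without Kuiyangling 1 both lost the call with Kuiyangling (adjusted p = 0.173 each), and Col5a2 did so without Kuiyangling 2 (0.0820) and Col18a1 without DSS model 1 (0.0511). Without mesalazine 1 both lost the call with mesalazine (0.124 for Col18a1 and 0.138 for Col5a2), as did Col5a2 without control 1 (0.0612). The estimates of both genes ran from 2.65 to 4.76 over the fits that left out 1 library.

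Other collagens with similar estimates missed the threshold. With Kuiyangling against controls, Col1a1 (3.05, SE 0.53), Col1a2 (2.92, SE 0.50), Col3a1 (3.12, SE 0.54) and Col4a2 (2.90, SE 0.52) each had adjusted p = 0.0568. Col4a1 was at 2.91 (SE 0.55, adjusted p = 0.0698), Col6a1 at 2.51 (SE 0.49, adjusted p = 0.0731) and Col12a1 at 2.89 (SE 0.62, adjusted p = 0.0955). With mesalazine, Col1a2 was at 2.16 (SE 0.49, adjusted p = 0.0812), Col3a1 at 2.19 (SE 0.53, adjusted p = 0.0902) and Col4a2 at 2.25 (SE 0.51, adjusted p = 0.0812). Col8a1 stayed below controls without overlap, at -3.06 with Kuiyangling (SE 0.60, adjusted p = 0.0739) and -2.63 with mesalazine (SE 0.59, adjusted p = 0.0805). Col16a1 and Col20a1 were lower without overlap too, at -0.84 and -1.04 with Kuiyangling and -1.25 and -1.08 with mesalazine. The medians with Kuiyangling were 2.98 for fibrillar, 2.54 for basement membrane and 0.76 for other collagens, and those with mesalazine 2.04, 1.74 and 0.39, beside -0.01 over all genes in each. No overlap was found for 17 collagens higher and 6 lower with Kuiyangling (25.9% and 23.2% of all tested genes) and for 15 and 5 with mesalazine (23.6% and 22.1%).

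The number of calls depended on the tool and on the filter on low counts. DESeq2 called 12 collagens between the DSS model and controls, 15 with Kuiyangling and 14 with mesalazine against controls, beside 3.11%, 2.56% and 7.19% of all genes, and edgeR without its filter on low counts called the same 12, 15 and 14 genes, beside 2.81%, 2.6% and 6.28%. In the DSS model these were Col1a1, Col1a2, Col3a1, Col5a1, Col5a2, Col5a3, Col4a1, Col4a2, Col18a1, Col6a2 and Col12a1, higher, and Col8a1, lower. Limma on the deposited FPKM, with either pseudocount, called 0 in the DSS model and 0 with mesalazine against controls, where 17 and 17 collagens (pseudocount 0.1) or 17 and 16 (pseudocount 1) had an unadjusted p under 0.05.

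Kuiyangling and mesalazine were compared directly for a difference between the treatments. By edgeR 0 of the 28 collagens and 0% of all tested genes passed the test, DESeq2 called 0 genes, and edgeR without its filter called 0 collagens and 0.0173% of genes. Values were higher with Kuiyangling for 25 of 28 estimates, 14 of them without overlap, and 0 were lower without overlap, where 10.6% of all tested genes were higher and 11.6% lower without overlap. The only unadjusted p under 0.05 was that of Col1a1, at 23.5 and 20.6 against 11.8 and 8.29 CPM (log2 change 1.14, SE 0.49, adjusted p = 0.999), and 1.9% of all tested genes had one. Col3a1 was at 0.93 (SE 0.50) and Col5a3 at 1.18 (SE 0.70). Smooth muscle markers were higher with Kuiyangling without overlap for 7 of 7 (median 0.92) and endothelial markers for 4 of 6 (median 0.78), while the fibroblast median was -0.11. Their part in the collagen values was not tested. The medians were 0.84 for fibrillar, 0.68 for basement membrane and 0.44 for other collagens, and without mesalazine 1 they were 1.25, 1.14 and 0.65. Longer genes had relatively fewer counts in mesalazine 1 (rho -0.534) than in mesalazine 2 (0.284) or the Kuiyangling libraries (-0.02 and 0.39). Over the alternative fits other than leaving out a library, length correction among them, the fibrillar median ran from 0.41 to 0.94.

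Genes that make, trim, bind and degrade collagen were read alongside. In the DSS model against controls, 14.8% of all tested genes had an unadjusted p under 0.05 and 0.247% were called, the shares against which the counts of each list stand. Of 17 tested hydroxylases, chaperones and export factors, 0 were called in any comparison, 4 had an unadjusted p under 0.05 between the DSS model and controls, and the median change there was 0.34. The collagen chaperone Serpinh1 had the smallest p, at 3.07 and 1.17 CPM in the controls and 8.93 and 15.7 in the DSS model (2.52, adjusted p = 0.103). Of 11 tested genes of propeptide cleavage and cross-linking 0 were called in the DSS model (median 0.93), where 4 had an unadjusted p under 0.05. Lox, the lysyl oxidase that starts cross-linking, had 0 counts in both controls and 29 in the DSS model, 114 with Kuiyangling and 94 with mesalazine. With the controls set to the floor of 3 counts in all, Lox was 11.4-fold, 39.1-fold and 36.5-fold higher. By edgeR it had adjusted p = 0.0666 in the DSS model and was called higher with Kuiyangling (0.0292) and mesalazine (0.0261), the 1 gene of this list called in each. Of all tested genes, 0.239% were called with Kuiyangling and 0.673% with mesalazine against controls.

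Collagen receptors numbered 9 tested and 0 called in any comparison (median 0.14 in the DSS model, 1 with an unadjusted p under 0.05), with the uptake receptor Mrc2 at 2.22 (adjusted p = 0.260). Among 11 tested partners of fibrils 0 were called in the DSS model (median 1.13, 5 with an unadjusted p under 0.05) and 1, Dcn, rose with mesalazine against controls (3.62, adjusted p = 0.0414). Among 14 basement membrane partners 0 were called in any comparison, their median in the DSS model was -0.07 and 4 had an unadjusted p under 0.05, with the laminin chain Lamb1 at 1.95 (adjusted p = 0.170). Of 8 tested collagen-degrading enzymes and inhibitors 1 rose in the DSS model (median 2.06), the collagenase Mmp13, from 0.991 and 0.802 to 20.4 and 84.5 CPM (5.85, adjusted p = 0.0176). Mmp13 also rose with mesalazine against controls (4.13, adjusted p = 0.0414), and with Kuiyangling it was at 4.09 (adjusted p = 0.0567). Between Kuiyangling and the DSS model these lists had 0 called genes, with medians of -0.10 for hydroxylases, chaperones and export factors, 0.50 for cross-linking, 0.71 for fibril partners, 0.37 for basement membrane partners and -0.50 for degrading enzymes.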

How the data were processed

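Polyadenylated RNA of colonic mucosa from 8 mice (4 groups of 2) was measured. Per the labels' protocols, RNA came from a mirVana extraction with an integrity number of 7 or more, and the library kit was TruSeq Stranded mRNA. The deposited counts are reads per gene, and the submitters' processing notes name Trimmomatic and HISAT2. The build and annotation, the counter and whether strand was used are not given in the sources used here. Reads shared by overlapping or antisense genes could therefore not be assessed. The deposited FPKM follow from the counts, a single length for each gene and the library's total, checked on the values. Columns were matched to samples by name and number, and 1 mesalazine column with another spelling was taken as replicate 2.

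Genes passing filterByExpr (13381) were scaled by TMM and tested with edgeR 4.0.16 quasi-likelihood F tests (R 4.3.3), all 8 libraries together, with group as the only term. P-values were adjusted by Benjamini-Hochberg over all tested genes, and a gene was called at an adjusted p under 0.05. SE is the log2 change divided by the root of F. CPM use TMM-scaled totals, and levels were compared between genes only in FPKM. Groups do not overlap where every library of one lies above every library of the other. Folds against 0 counts use a floor of 3 counts summed over the animals of a group and carry no interval. Ratios with 1 to 3 counts have exact (Clopper-Pearson) 95% intervals, which cover counting error only. Alternatives were RLE scaling, no filter, DESeq2 1.42.0, only the 4 libraries compared, a replicate block, a gene length correction, both together, limma 3.58.1 on log2(FPKM + 0.1) and log2(FPKM + 1), type IV alone, all 35 genes, and leaving out each library. Methods were tested on simulated data.

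The collagen genes, classes and lists were chosen with earlier results of these data known. Named genes were those called, otherwise the 3 with the smallest p, a panel of main collagens, and from each list the gene with the smallest p in the DSS model. Other collagens, such as Col5a3, Col16a1 and Col20a1, and the markers Pdgfra, Pi16 and Cd79a were named after their values were seen. Promoter windows are RefSeq's on GRCm38.p6.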

Additional observations from a re-analysis of the deposited data

How the results depend on the processing

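The counts of called collagens were the least stable results. For the DSS model against controls (1 called) the count was 12 with no filter on low counts and with DESeq2, 2 with only the 4 libraries compared, and 0 with limma on log2(FPKM + 0.1) and log2(FPKM + 1). For Kuiyangling against controls (2 called) it was 15 without the filter and with DESeq2, and 0 with limma on log2(FPKM + 1). For mesalazine against controls (2 called) it was 14, 14, 7 with only the 4 libraries, and 0 with both limma fits. Leaving out 1 library at a time gave 0 to 4, 0 to 9 and 0 to 14 calls, with 0 without control 2 and the most without mesalazine 2 in each, a tie with control 1 for Kuiyangling. The count was also 0 for the DSS model without any one of the DSS model and Kuiyangling libraries, for Kuiyangling without Kuiyangling 1, and for mesalazine without mesalazine 1. The cause was not tested. The other 3 comparisons had 0 called collagens in all 17 alternatives.

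Replicate numbers did not pair the animals: deviations of same-numbered libraries correlated between -0.311 and 0.162 over the 6 pairs of groups. With the replicate block the counts were 2 for the DSS model and 9 for Kuiyangling against controls, and with block and gene length correction 2 and 7. For the DSS model these were Col18a1 and Col8a1 with the block, and Col18a1 and Col1a1, both higher, with block and length correction, where Col8a1 lost its call (adjusted p = 0.0597). The block turned Col5a1 to -0.03 and Col4a1 to -0.02 between mesalazine and the DSS model, and with the length correction they were at -0.02 and -0.01.

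With limma on log2(FPKM + 1) the class medians were 0.54 (fibrillar) and 0.38 (basement membrane) for the DSS model against controls, 0.51 (basement membrane) and 0.11 (other) for Kuiyangling against the DSS model, 0.97, 0.89 and 0.05 for Kuiyangling and 0.56, 0.47 and 0.01 for mesalazine against controls, and 0.41 (fibrillar) and 0.06 (other) for Kuiyangling against mesalazine. With log2(FPKM + 0.1) they were 2.43, 2.05 and 0.32 for Kuiyangling and 1.49, 1.20 and 0.08 for mesalazine against controls. With all members and no filter, basement membrane medians were 0.26, 2.16 and 1.27 for the DSS model, Kuiyangling and mesalazine against controls, and other collagens 0.92 and -0.01 for the latter 2. Length correction moved other collagens to 0.65 for mesalazine against controls and 0.25 for Kuiyangling against mesalazine, or 0.60 and 0.24 with the block.

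Leaving out 1 library at a time, medians for the DSS model against controls ran from 1.41 to 2.69 (fibrillar), 0.55 to 3.05 (basement membrane) and -0.58 to 1.08 (other). For Kuiyangling against the DSS model they ran from 0.59 to 1.31 (basement membrane). For mesalazine against the DSS model they ran from -0.51 to 0.77 (basement membrane). For Kuiyangling against controls they ran from 2.42 to 3.60 (fibrillar), 1.86 to 4.25 (basement membrane) and 0.00 to 1.46 (other). For mesalazine against controls they ran from 1.54 to 2.73 (fibrillar), 1.06 to 3.55 (basement membrane) and -0.54 to 1.34 (other). For Kuiyangling against mesalazine they ran from 0.51 to 1.25 (fibrillar), 0.19 to 1.14 (basement membrane) and 0.13 to 0.65 (other).

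Mostly small estimates changed sign. A larger one was that of Col8a1 between mesalazine and the DSS model, 1.24 with all libraries and -0.17 without mesalazine 2. Col15a1 between the DSS model and controls was 0.13 with length correction, also with the block. Col12a1 between Kuiyangling and the DSS model was -0.18 and -0.17. Col5a1 between mesalazine and the DSS model was -0.03 and -0.02 in the limma fits. Col8a1 between the treatments was 0.01 with log2(FPKM + 0.1). Leaving out 1 library at a time, signs also changed for the DSS model against controls, with ranges of -0.42 to 0.26 for Col15a1. Such ranges for Kuiyangling against the DSS model were -0.41 to 1.01 for Col12a1. Such ranges for mesalazine against the DSS model were -0.17 to 1.91 for Col8a1, -0.58 to 0.33 for Col1a1, -0.35 to 0.77 for Col1a2, -0.04 to 0.67 for Col3a1, -0.63 to 0.56 for Col5a1, -0.25 to 0.71 for Col5a2, -0.70 to 0.69 for Col4a1, -0.67 to 0.77 for Col4a2, -0.57 to 0.78 for Col18a1, -0.17 to 0.75 for Col6a1, -0.42 to 0.78 for Col6a2, -0.10 to 0.83 for Col6a3, -0.94 to 0.49 for Col12a1 and -0.60 to 0.90 for Col7a1. Such ranges for Kuiyangling against controls were -0.03 to 0.62 for Col15a1 and -1.41 to 0.38 for Col7a1. Such ranges for Kuiyangling against mesalazine were -1.11 to 0.99 for Col8a1 and -0.08 to 1.44 for Col7a1.

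At 0.149 to 0.212 CPM for 3 counts, the 7 untested collagens and Col5a3 in controls were at or near the limit of detection. Col4a5, Col4a6 and Col6a5 were so in control 2 (1, 0 and 1 counts) but not in control 1 (20, 14 and 13 counts). Having 2 animals a group limits every p-value.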
